A study of Mus musculus with 2 samples.

Results

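The 10 genes described here encode receptor tyrosine kinases outside the ERBB family that lung tumour cells can carry. They are the MET family receptors *Met* and *Mst1r*, the TAM family receptors *Axl* and *Mertk*, the FGF receptors *Fgfr1* and *Fgfr2*, the ephrin receptors *Epha2* and *Ephb4*, the collagen receptor *Ddr1* and the PDGF receptor *Pdgfra*. They were chosen by gene symbol, and all 10 were found among the 23183 genes of the deposited tables. Messenger RNA was sequenced from 1 library of KPR- cells and 1 library of KPRrestored cells. KPR- cells are an immortalized line grown from lung cancers of KPRL/F mice that had received no tamoxifen. Their alleles were *K-RasLSL-G12D/+*, *p53flox/flox*, *Runx3flox/FSF*, Tomato and *FlpERT2*. Adenoviral Cre, driven by the CMV promoter, had switched on oncogenic *K-Ras* and deleted *p53* and the floxed *Runx3* allele in the airways, so both libraries share these changes. In KPRrestored cells, 4-hydroxytamoxifen (4-OHT) activates the Flp recombinase, which takes the Stop cassette out of the remaining *Runx3* allele. The sample titles place the libraries at 0 h and 16 h, the genotype labels read RUNX3 -/- and RUNX3 -/+, and 1 μM 4-OHT is listed for both. The sources used here do not say how many tumours or clones the line came from. The comparison asks how the transcripts differ between the library labelled KPRrestored and the library labelled KPR-. In the paper, KPRrestored cells arise from KPR- cells by treatment with 4-OHT, and the titles also differ in time. No further library serves as a control for 4-OHT or for time in culture. The part of the restored *Runx3* allele in any difference, separate from 4-OHT and time, was therefore not tested.

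A receptor tyrosine kinase binds a ligand outside the cell, pairs with a second receptor and phosphorylates tyrosines on its own tail. Adaptor proteins then dock there and pass the signal to RAS and ERK, to PI3K and to other pathways, and ubiquitin ligases and phosphatases end it. In lung tumours, MET and AXL are known for carrying signals around a blocked EGFR or K-RAS pathway.

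Values are FPKM, that is fragments scaled to transcript length and to sequencing depth, so levels can be set side by side between genes. A difference is log2(FPKM + 0.005) in KPRrestored minus KPR-. The number of fragments behind each value was estimated from the steps that whole fragments leave in low FPKM values. The fit put the KPR- library at 21.9 M fragments and the KPRrestored library at 22.4 M. If the values carry a further normalization, these are effective scales rather than library depths. Intervals are 95% Clopper-Pearson limits on the estimated fragments and cover counting error only. There are no replicates, so no difference could be set against the spread between cultures and no test of the conditions was possible. A gene is said to have risen or fallen where its difference was 0.5 or more and its counting interval lay on 1 side of 0.

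*Runx3* itself had 0.348 FPKM in KPR- and 0.349 FPKM in KPRrestored, from about 28 and 29 fragments. A value per gene does not separate the restored allele from other *Runx3* transcripts, so it does not check the labels, and each direction below is that of the library labelled KPRrestored against the library labelled KPR-. The epithelial markers were high in both libraries, with *Krt8* at 1711 and 1631 FPKM and *Epcam* at 105 and 91.6 FPKM. *Cldn4* rose from 107 to 202 FPKM (difference 0.92), and the other 6 epithelial markers neither rose nor fell. Of 7 alveolar markers, 5 were listed at 0 in both libraries, among them *Sftpc* and *Napsa*, and 0 reached a mean of 1 FPKM. Summed over its markers, the fibroblast list had 12.5 and 4.99 FPKM, of which *Col1a1* made up 12.2 and 4.21 FPKM. The macrophage and leukocyte list had 5.81 and 7.98 FPKM. The endothelial list had 1.23 and 2.22 FPKM, of which *Kdr* made up 1.10 and 2.05 FPKM. The mesothelial list had 280 and 222 FPKM, with *Msln* at 279 and 222 FPKM. Its other markers were near 0, as *Wt1* fell from 0.301 to 0.108 FPKM and *Upk3b* from 0.175 to 0.0486 FPKM. *Lrrn4* had 0.014 and 0 FPKM. In a bulk library, fewer cells of a type and less RNA per cell cannot be told apart.

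Of the 10 receptor genes, 4 fell (*Met*, *Axl*, *Mertk* and *Fgfr2*), 1 rose (*Mst1r*) and 5 did neither (*Fgfr1*, *Epha2*, *Ephb4*, *Ddr1* and *Pdgfra*). Over the 21960 genes with estimated fragments, 5.88% fell and 7.09% rose by the same rule. Of the 7 receptors with a mean of at least 1 FPKM, 2 fell and 1 rose, beside 8.83% and 11.7% of the 10790 such genes with estimated fragments. The median difference of these 7 was -0.05, and that of all 11231 genes with a mean of at least 1 FPKM was 0.0086. The receptors moved in both directions. The FPKM summed over all 10 went from 609 to 489, while the sum without *Met* and *Axl* went from 254 to 290.

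**Figure D1:**
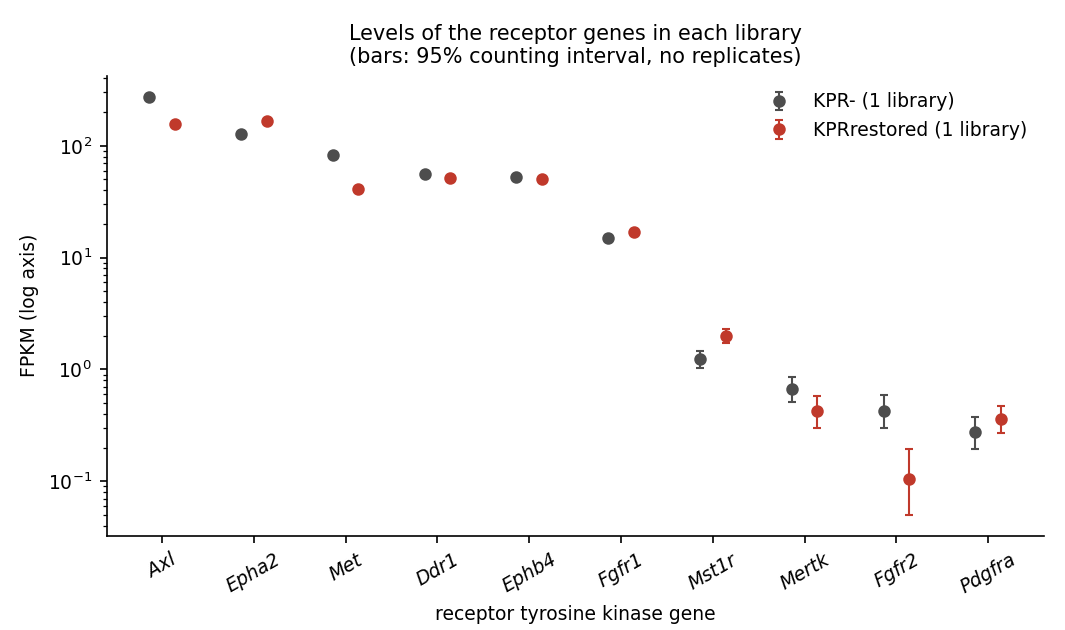
FPKM (log axis) of the 10 receptor genes in the KPR- library (grey) and the KPRrestored library (red), ordered by their KPR- level, with 95% counting intervals as bars. *Axl*, *Met*, *Mertk* and *Fgfr2* sit lower in KPRrestored, *Mst1r* sits higher, and the genes span from 273 FPKM for *Axl* to 0.273 FPKM for *Pdgfra* in KPR-.

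In KPR- the order of the levels ran *Axl*, *Epha2*, *Met*, *Ddr1*, *Ephb4*, *Fgfr1*, *Mst1r*, *Mertk*, *Fgfr2* and *Pdgfra*. The counting intervals of neighbours overlapped at the low end, between *Mertk* and *Fgfr2* and between *Fgfr2* and *Pdgfra*. In KPRrestored the order ran *Epha2*, *Axl*, *Ddr1*, *Ephb4*, *Met*, *Fgfr1*, *Mst1r*, *Mertk*, *Pdgfra* and *Fgfr2*. There the intervals overlapped between *Ddr1* and *Ephb4* and between *Mertk* and *Pdgfra*. *Axl* made up 44.7% of the summed FPKM of the 10 receptors in KPR- and 32.2% in KPRrestored. *Epha2* went from 20.9% to 34.3% and took the first place, and *Met* went from 13.6% to 8.49%, from the third place to the fifth. The spread of these shares between cultures is unknown.

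*Met* encodes the receptor for hepatocyte growth factor (HGF), which drives scattering and survival of epithelial cells. The gene spans bases 17463349 to 17573980 of chromosome 6 (GRCm38, plus strand), and its longest transcript with a RefSeq counterpart has 22 exons and 6809 bases. It had 82.8 FPKM in KPR- and 41.5 FPKM in KPRrestored, from about 11955 and 6129 fragments. The level in KPRrestored was 50.1% of that in KPR-, so the log2 difference was -0.996, and its counting interval ran from -1.04 to -0.95. Of the 6725 genes with a mean of at least 10 FPKM, 0.520% had a difference as low or lower. A running median of the differences over transcript length was taken from genes with a mean of at least 1 FPKM. With this trend removed, the difference of *Met* was -0.84. *Hgf* was listed at 0 in both libraries.

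*Axl*, a receptor of the TAM family that binds the vitamin K-dependent protein GAS6, was the most abundant of the 10 in KPR-. It spans bases 25756500 to 25788924 of chromosome 7 (minus strand). Its level was 273 FPKM in KPR- and 158 FPKM in KPRrestored, from about 24179 and 14302 fragments. On the log2 scale this was -0.79, with a counting interval of -0.82 to -0.76, and 1.38% of the genes with a mean of at least 10 FPKM had one as low or lower. Even so, *Axl* had the rank of 522 among all 23183 genes in KPRrestored, after 281 in KPR-. The ratio of *Axl* to *Met* was 3.29 in KPR- and 3.80 in KPRrestored, as both fell.

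*Epha2*, an ephrin-A receptor often found at high levels in carcinoma cells, went the other way without passing the threshold. It spans bases 141301221 to 141329384 of chromosome 4 (plus strand). It had 127 FPKM in KPR- and 168 FPKM in KPRrestored, from about 10318 and 13907 fragments. The difference of 0.40 was under the threshold of 0.5, with a counting interval of 0.36 to 0.43. As high a difference or higher was seen in 13.6% of the genes with a mean of at least 10 FPKM. *Epha2* over *Axl* was 0.467 in KPR- and 1.06 in KPRrestored.

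The sequences before the start sites of these 3 genes are shown because they are the 3 most abundant receptors in KPR- and their differences had different signs. They are the 250 bases before the RefSeq start (GRCm38.p6), written 5′ to 3′ on the strand of the gene. *Met* is at chr6:17463707-17463956 (plus), *Axl* at chr7:25788734-25788983 (minus) and *Epha2* at chr4:141300971-141301220 (plus), and the records of *Met* and *Axl* also hold transcripts that start farther upstream. Capitals mark matches on either strand to 3 motifs, which are the RUNX hexamers TGTGGT and TGCGGT, the AP-1 site TGACTCA and the GC box GGGCGG. No match overlaps another in them.
Met: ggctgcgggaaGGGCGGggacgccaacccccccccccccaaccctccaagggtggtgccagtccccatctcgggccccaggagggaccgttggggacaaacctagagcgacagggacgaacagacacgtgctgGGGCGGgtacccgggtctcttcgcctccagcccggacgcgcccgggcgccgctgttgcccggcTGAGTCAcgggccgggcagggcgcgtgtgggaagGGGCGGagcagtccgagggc
Axl: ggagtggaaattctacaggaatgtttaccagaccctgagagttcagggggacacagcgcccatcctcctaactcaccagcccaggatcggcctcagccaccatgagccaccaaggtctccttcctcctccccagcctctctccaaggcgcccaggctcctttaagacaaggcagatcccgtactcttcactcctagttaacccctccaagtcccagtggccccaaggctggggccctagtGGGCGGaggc
Epha2: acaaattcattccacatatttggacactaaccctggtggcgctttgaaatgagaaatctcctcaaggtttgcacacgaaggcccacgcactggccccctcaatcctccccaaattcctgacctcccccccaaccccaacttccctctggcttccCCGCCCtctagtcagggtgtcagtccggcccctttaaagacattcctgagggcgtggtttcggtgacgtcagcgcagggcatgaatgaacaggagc

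The capitals in *Met* are 3 GC boxes and 1 AP-1 match at bases -54 to -48, with the start counted as 0. In *Axl* they are 1 GC box at -10 to -5, and in *Epha2* 1 GC box at -96 to -91. A RUNX hexamer was not among these letters in any of the 3. In windows of 300 bases (250 before and 50 after the start) a RUNX hexamer was found in 22.4% of 32851 promoters, an AP-1 site in 5.2% and a GC box in 35.7%. Of the 13 windows that RefSeq gives for 9 of the receptors, 3 held a RUNX hexamer, in 2 start sites of *Ddr1* and 1 of *Mst1r*. An AP-1 site was found in 2 of them (*Met* and *Ddr1*) and a GC box in 9. The windows of *Met*, *Axl* and *Epha2* were 75.7%, 60.3% and 54.7% G and C, beside a median of 52.7% over all promoters. A match is a run of letters, not a known binding site.

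*Mst1r*, the other MET family receptor (RON), binds macrophage-stimulating protein and was the 1 receptor that rose. It spans bases 107906858 to 107920383 of chromosome 9 (plus strand). It had 1.24 FPKM in KPR- and 1.99 FPKM in KPRrestored, from about 122 and 201 fragments, a difference of 0.68 (interval 0.36 to 1.02). With a pseudocount of 1 the difference was 0.42, under the threshold. *Met* exceeded *Mst1r* by 66.9 times in KPR- and by 20.9 times in KPRrestored. *Mst1*, which encodes the ligand of RON, rose from 0.616 to 2.42 FPKM, from about 28 and 111 fragments, a log2 difference of 1.96 with limits of 1.35 to 2.61. Its exons share 195 bases with those of *Rnf123* on the opposite strand, and whether the counting used strand is not given in the sources used here. Receptor and ligand thus rose together, both at low levels.

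*Mertk*, the second TAM receptor among the 10 and best known from macrophages that take up dying cells, was near the limit of the depth. It spans bases 128698915 to 128803162 of chromosome 2 (plus strand) and had 0.669 and 0.424 FPKM, from about 60 and 39 fragments. Its difference was -0.65 and the interval ran from -1.27 to -0.05, so its upper end lay close to 0. With a pseudocount of 1 the difference was -0.23, under the threshold. Of the 6 macrophage and leukocyte markers, 2 (*Adgre1* and *Tyrobp*) were listed at 0 in both libraries. *Ptprc* had 0 and 0.0089 FPKM and *Itgam* 0.041 and 0 FPKM in KPR- and KPRrestored. *Cd68* rose from 3.08 to 6.78 FPKM and *Csf1r* fell from 2.68 to 1.19 FPKM. The part of such cells in the value of *Mertk* was not tested. The third TAM gene, *Tyro3*, had 9.50 and 10.1 FPKM, a difference of 0.09. *Axl* exceeded *Tyro3* by 28.7 times in KPR- and 15.6 times in KPRrestored, so it was the highest TAM transcript in both libraries. Of the TAM ligands, *Gas6* rose from 0.518 to 1.86 FPKM (difference 1.84, interval 1.23 to 2.55), while *Pros1*, which encodes protein S, fell from 4.85 to 2.86 FPKM (difference -0.76, interval -1.02 to -0.50).

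*Fgfr1* and *Fgfr2* encode receptors for fibroblast growth factors, of which FGFR2 is known in lung epithelium as the receptor of FGF7 and FGF10. *Fgfr1*, at bases 25518759 to 25575718 of chromosome 8 (plus strand), had 15.1 FPKM in KPR- and 17.1 FPKM in KPRrestored. Its difference was 0.18, with an interval of 0.08 to 0.28. *Fgfr2*, at bases 130162451 to 130266808 of chromosome 7 (minus strand), fell from 0.426 to 0.105 FPKM, from about 38 and 10 fragments. Its difference was -1.97, with the widest interval of the 10, -3.13 to -0.93. With a pseudocount of 1 it was -0.37, under the threshold and smaller than that of *Met* (-0.98). *Fgfr1* exceeded *Fgfr2* by 35.5 times in KPR- and 163 times in KPRrestored. The values do not separate the IIIb and IIIc splice forms, and exons of *Fgfr2* share 314 bases with transcripts annotated to *Ctbp2* on the same strand.

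The 15 FGF ligand genes on the list were low, with 7 listed at 0 in both libraries and none above 1.40 FPKM in KPR- or 0.816 FPKM in KPRrestored. *Fgf1* fell from 1.40 to 0.816 FPKM. *Fgf2* rose from 0.187 to 0.553 FPKM, and *Fgf22* went from listed at 0 to 0.161 FPKM on about 7 fragments. *Fgfrl1*, a receptor-like gene without a kinase, had 7.99 and 11.2 FPKM, a difference of 0.49.

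The remaining 3 receptors did not pass the rule. *Ephb4*, the receptor of ephrin-B2, had 52.2 FPKM in KPR- and 50.4 FPKM in KPRrestored, a difference of -0.05 with an interval of -0.11 to 0.01. It spans bases 137350109 to 137374522 of chromosome 5 (plus strand). Its ligand gene *Efnb2* fell from 40.6 to 21.7 FPKM, a difference of -0.90 with an interval of -0.98 to -0.83. Here the ligand fell and the receptor had nearly the same value in both libraries. Of the 5 ephrin-A genes, *Efna1* had 31.5 and 34.6 FPKM, and *Efna3* rose from 0.763 to 1.84 FPKM.

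*Ddr1*, a receptor that binds fibrillar and basement membrane collagens, spans bases 35681567 to 35704741 of chromosome 17 (minus strand). It had 56.5 FPKM in KPR- and 51.4 FPKM in KPRrestored, a difference of -0.14 with an interval of -0.20 to -0.08. Of 4 collagen chain genes listed as its ligands, *Col1a1* fell from 12.2 to 4.21 FPKM (difference -1.53, interval -1.68 to -1.39). *Col4a1* had 71.1 and 52.0 FPKM and *Col4a2* 46.1 and 33.7 FPKM, with a difference of -0.45 each.

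*Pdgfra*, a PDGF receptor used as a marker of fibroblasts, spans bases 75151322 to 75198206 of chromosome 5 (plus strand). It was the lowest of the 10 in KPR-, with 0.273 FPKM there and 0.363 FPKM in KPRrestored, from about 40 and 54 fragments. The difference of 0.40 had an interval of -0.22 to 1.03, so neither a rise nor a fall was detectable at this depth. Its exons share 456 bases with *Gm42802* on the opposite strand. Its ligand genes were far more abundant, with *Pdgfa* at 37.7 and 41.3 FPKM, *Pdgfb* at 34.4 and 24.5 FPKM and *Pdgfc* at 7.0 and 5.31 FPKM. *Pdgfb* had a difference of -0.49, just under the threshold. Of the 7 fibroblast markers, *Lum* and *Tcf21* were listed at 0 in both libraries. *Col1a1* fell from 12.2 to 4.21 FPKM, while *Dcn* rose from 0.173 to 0.742 FPKM on about 6 and 26 fragments. *Pdgfrb* had 0.0264 and 0.0171 FPKM, *Col1a2* 0.0463 and 0.018 FPKM and *Col3a1* 0.0171 and 0 FPKM. The part of such cells in the value of *Pdgfra* was not tested.

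**Figure D2:**
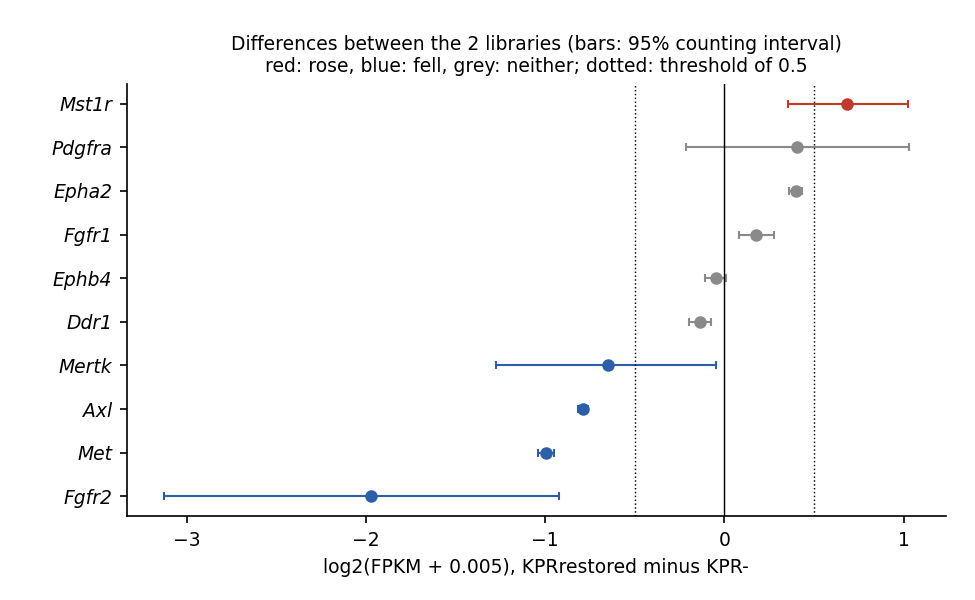
Difference of each receptor gene on the log2 scale, KPRrestored minus KPR-, with 95% counting intervals as bars and the threshold of 0.5 dotted. *Met* at -0.996 and *Axl* at -0.79 have narrow intervals, while *Fgfr2*, *Mertk* and *Pdgfra* rest on few fragments and have wide ones.

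**Figure D3:**
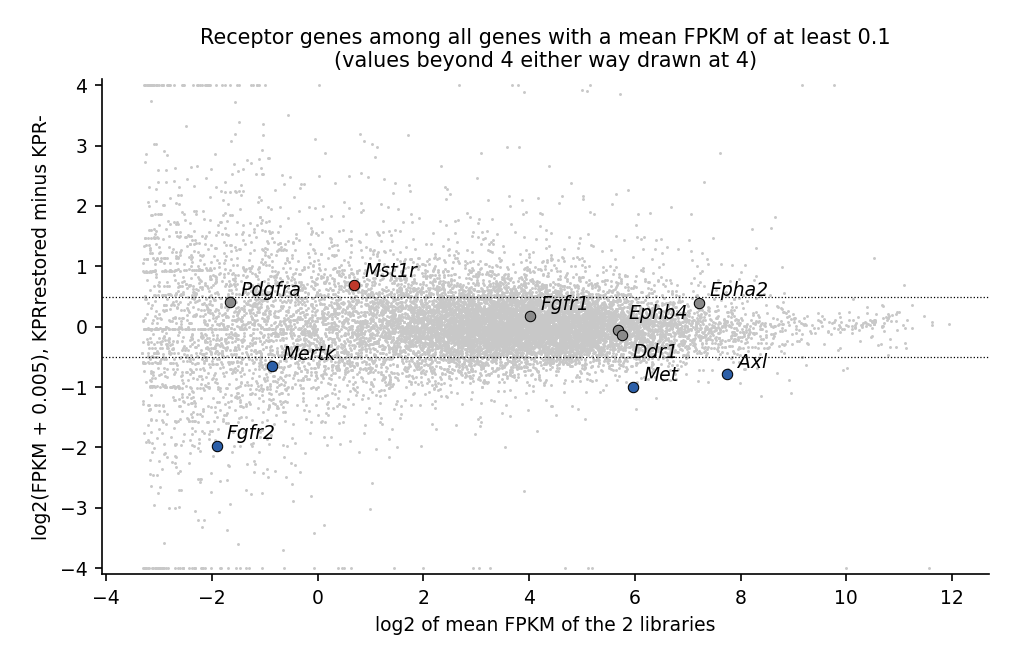
Difference (log2, KPRrestored minus KPR-) against the log2 of the mean FPKM for 13713 genes with a mean of at least 0.1 FPKM (grey), with the 10 receptor genes named. *Met* and *Axl* lie at the lower edge of the genes of like level, and *Mertk*, *Fgfr2* and *Pdgfra* lie where low values scatter.

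The genes next to the receptors on the chromosome were looked up in the same way. Of the 20 nearest genes with a mean of at least 1 FPKM (1 on each side), 5 rose and 3 fell, beside 11.7% and 8.83% of all such genes. *Cav1*, 122 kb before *Met*, fell from 184 to 111 FPKM (difference -0.72, interval -0.77 to -0.68), whereas *Capza2*, 63.0 kb after it, had 110 FPKM in both libraries. Around *Axl*, *Cyp2s1* fell from 24.8 to 15.1 FPKM and *Hnrnpul1* had a difference of -0.22. On both sides of *Epha2* the neighbours rose, *Arhgef19* by 0.52 and *Fam131c* by 1.32 on the log2 scale. *Anapc1* beside *Mertk* fell (difference -0.55). Beside receptors that neither rose nor fell, *Ier3* rose by 0.98 next to *Ddr1*, and *Chic2* and *Kdr* by 0.92 and 0.89 around *Pdgfra*. No neighbour of *Mst1r*, *Fgfr1*, *Fgfr2* or *Ephb4* rose or fell. These neighbours were chosen by position, after the values of the receptors were known.

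A further 41 receptor tyrosine kinase genes, without the ERBB and insulin receptor families, were examined as a list. Of these, 19 had a mean of at least 1 FPKM, and 5 of the 19 fell, 2 rose and 12 did neither, beside the 8.83% of all such genes that fell and the 11.7% that rose. Their median difference was -0.28. Over all 41, 6 rose and 5 fell, as *Flt3*, *Aatk*, *Ddr2* and *Ltk* rose with a mean under 1 FPKM, beside 7.09% and 5.88% of all genes with estimated fragments. The genes that fell were *Csf1r*, *Ror1*, *Epha7*, *Ephb6* and *Flt4*, and those that rose were *Kdr* and *Ephb3*. *Csf1r*, the receptor of macrophage colony-stimulating factor, fell from 2.68 to 1.19 FPKM, a difference of -1.17 with an interval of -1.54 to -0.83. *Ephb6*, an ephrin receptor with an inactive kinase, fell from 8.09 to 4.89 FPKM. *Kdr*, which encodes VEGF receptor 2, rose from 1.10 to 2.05 FPKM, and *Ltk* rose from 0.416 to 1.14 FPKM. *Ryk*, a Wnt-binding receptor, was the most abundant of the list with 31.0 and 24.2 FPKM, so none of the 41 reached the level of *Met*, *Axl*, *Epha2*, *Ephb4* or *Ddr1*.

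Of the 32 ligand genes of the 10 receptors, 15 had a mean of at least 1 FPKM, and 3 of them rose (*Mst1*, *Gas6* and *Efna3*) and 4 fell (*Col1a1*, *Efnb2*, *Fgf1* and *Pros1*), beside 11.7% and 8.83% of all such genes. Their median difference was -0.42. Over the whole list 5 rose and 4 fell, beside 7.09% and 5.88% of all genes with estimated fragments. Among 17 expressed genes for ligand activation, shedding and co-receptors, of a list of 19, 2 fell and 0 rose, with a median of -0.19, beside the 8.83% of all expressed genes that fell and the 11.7% that rose. *Nrp1*, a co-receptor for several growth factors, fell from 6.21 to 1.57 FPKM (difference -1.98, interval -2.29 to -1.69), and *Plxnb1*, a semaphorin receptor that can pair with MET, fell from 8.97 to 6.15 FPKM. *Cd44*, another partner of MET, had 153 and 149 FPKM. The sheddases *Adam10* and *Adam17* had differences of -0.38 and -0.35, and the heparan sulfate carrier *Gpc1* one of 0.16.

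Adaptors dock on the activated receptor, and the negative regulators end its signal. All 35 had a mean of at least 1 FPKM, and 8 rose and 0 fell, with a median difference of 0.17, beside the 11.7% of all genes at that level that rose and the 8.83% that fell. *Grb10*, an adaptor that restrains receptor signalling, rose from 1.98 to 4.33 FPKM (difference 1.13, interval 0.89 to 1.37). *Gab2*, a docking protein that carries signals to PI3K, rose from 2.59 to 5.33 FPKM (difference 1.04, interval 0.86 to 1.24). *Hgs* and *Stam*, which sort ubiquitinated receptors toward the lysosome, rose by 0.62 and 0.61, and *Errfi1*, a feedback inhibitor of ERBB kinases, rose by 0.53. *Cbl*, the ubiquitin ligase that docks on MET, had 5.96 and 4.69 FPKM, a difference of -0.35. *Ptprf* and *Dok2* had the lowest differences of log2(FPKM + 1), and theirs of log2(FPKM + 0.005) were -0.32 and -0.47.

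Genes that answer to ERK, the kinase at the end of the RAS pathway, were examined as the last list. Of 16 expressed genes on a list of 17, 8 rose and 1 fell, with a median of 0.56, beside 11.7% and 8.83% of all expressed genes. *Dusp4*, a phosphatase that acts on ERK, rose from 27.2 to 65.9 FPKM (difference 1.27), and *Ier3* rose from 296 to 587 FPKM (difference 0.98). *Ccnd1*, which encodes cyclin D1, fell from 331 to 203 FPKM (difference -0.71). *Etv1*, *Etv4* and *Etv5*, transcription factors of the ERK and FGF response, had differences of -0.19, -0.03 and 0.41.

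**Figure D4:**
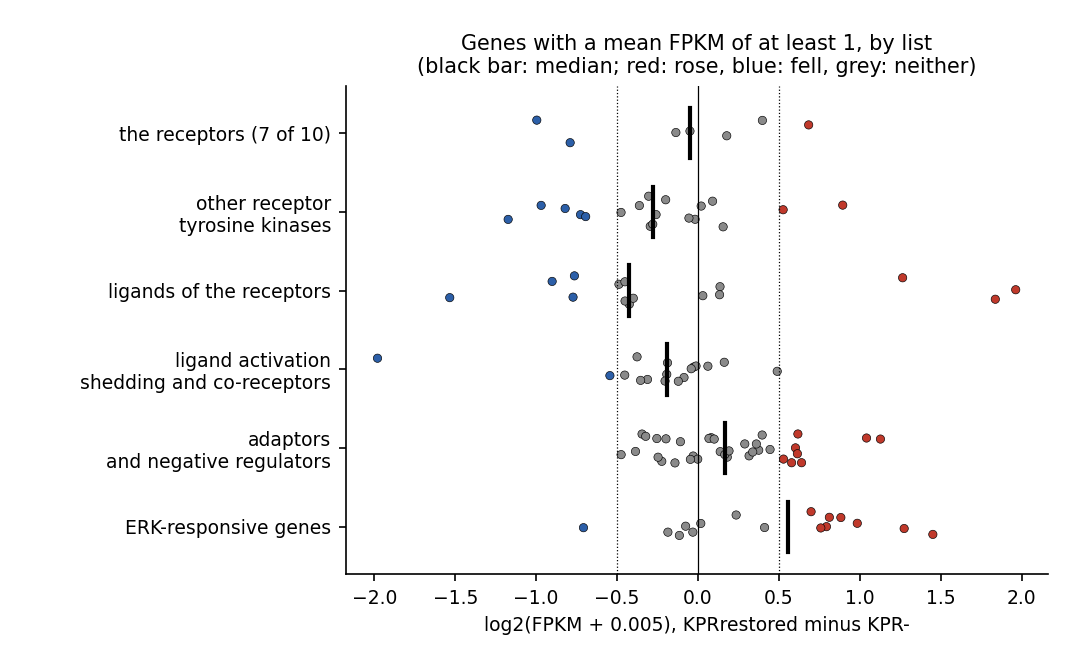
Differences (log2, KPRrestored minus KPR-) of genes with a mean of at least 1 FPKM, 1 point per gene, for the receptors and the 5 related lists, with medians as black bars. The median lies at -0.42 for the ligands and at 0.56 for the ERK-responsive genes, and points past the dotted lines with a counting interval clear of 0 are coloured.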

How the data were processed

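Total RNA of 1 KPR- library and 1 KPRrestored library was poly(A)-selected and sequenced as directional paired-end libraries. The authors trimmed adapters and bases of low quality, mapped the reads using TopHat and estimated FPKM values using Cufflinks. The deposited tables hold 1 FPKM value per gene. The paper also describes a geometric normalization of the read count data. Whether the deposited FPKM values carry it is not given in the sources used here. The submitters' processing notes name mm10. Tool versions and the annotation are not given in the sources used here. Read counts were not used here.

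Differences were computed as log2(FPKM + 0.005), which understates changes of genes near the pseudocount, with a threshold of 0.5. Transcript lengths were taken from GENCODE M21, in which 22148 symbols matched, and gene positions and promoters from RefSeq (GRCm38.p6), in which 9 of the 10 receptors had a promoter. The depth, or effective scale, and a mean fragment length of 215 bases were fitted so that low values gave whole fragments. Of 518 and 524 genes with 0.5 to 5.5 fragments, 78.6% and 80.7% came within 0.1 fragment of a whole count (20% by chance without a fit). The fit was made on these same genes, so the shares are not a separate check of it. Fragments were estimated for 21960 genes with the longest transcript that has a RefSeq counterpart, which overstates them where a gene has shorter transcripts. The fit was also run on simulated data with 1 transcript length per gene. As the estimate uses the same lengths, that run cannot show errors from other transcripts or from a normalization of the values.

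The receptors and the lists were chosen with earlier results of these data known. Named genes are all 10 receptors, their ligands and, in each list, the 2 largest rises and 2 largest falls of log2(FPKM + 1). Others were named after their values were seen. Alternatives were other pseudocounts, scalings, thresholds, filters and transcript lengths. Exons of *Fgfr1*, *Fgfr2*, *Ephb4*, *Ddr1* and *Pdgfra* overlap those of other genes. Computations used scipy 1.17.1, pandas 2.3.3 and numpy 2.4.6 under Python 3.11.15, and figures used matplotlib 3.10.9.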

Additional observations from a re-analysis of the deposited data

How the results depend on the processing

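No called difference of a receptor changed sign under any of 6 alternatives (pseudocounts of 0.1 and 1, equal FPKM totals, equal upper quartiles, centring on the median gene, and removal of the trend over transcript length). This is no support for them, as a pseudocount cannot change a sign and the other shifts were smaller than the called differences. Over genes with a mean of at least 1 FPKM, the median shift was -0.0064 for equal totals and -0.02 for equal upper quartiles. For centring it was -0.0086, and for the length trend -0.032. The length trend moved *Met* and *Pdgfra*, the receptors with the longest transcripts, by more. *Met* went from -0.996 to -0.84 and *Pdgfra* from 0.40 to 0.56. *Met* ranged from -1.02 to -0.84 and *Axl* from -0.81 to -0.78. *Met* left its counting interval with the length trend removed (-0.84), and *Fgfr2* with a pseudocount of 1 (-0.37), which shrinks low values by construction. With a pseudocount of 1, *Mertk* (-0.23), *Fgfr2* and *Mst1r* (0.42) were under the threshold, so 0 receptors were higher and 2 lower by 0.5 or more. With a threshold of 1 these were 0 and 1, and 2 were lower with a mean of at least 1 FPKM. With the length trend removed, 2 were higher, as *Pdgfra* reached 0.56. Of the 144 genes on the 5 related lists, 32 were higher and 22 lower by 0.5 or more. Those counts were 20 and 9 with a pseudocount of 1, 16 and 10 with a threshold of 1, and 21 and 12 with a mean of at least 1 FPKM. The lower ones were 12 with a pseudocount of 0.1 and 12 with the counting interval required. Of all 23183 genes, 3193 were higher and 3002 lower. These were 1141 and 836 with a pseudocount of 1, 1625 and 1527 with a threshold of 1, 1358 and 1043 with a mean of at least 1 FPKM, and 1558 and 1291 with the counting interval required. The interval excluded 0 for 8 receptors, also with the shortest coding transcript, which scales both libraries alike. With many fragments small differences pass as well, as for *Fgfr1* (0.18) and *Ddr1* (-0.14). The share of all genes whose interval excluded 0 was not computed. No paired analysis was possible because each group had 1 library. With about 38 and 10 fragments for *Fgfr2* and 60 and 39 for *Mertk*, depth limits both, and replicate spread is unknown for all genes.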
